A study of Mus musculus with 2 samples.

Results

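Antisense RNA genes are transcribed from the strand opposite another gene, and their promoters were described here as DNase I accessible DNA in mouse cerebellum. The GENCODE M21 annotation lists 2959 genes of type antisense on 21 chromosomes, and these have 4096 distinct transcript starts out of 132633 starts of all genes. Of the 4096 starts, 1337 lie within 1 kb of the start of a protein-coding transcript and are called near starts, and 2759 lie farther away and are called independent starts. A start was called open where a peak of the larger deposited list came within 1 kb of it. Both classes were described by the share of open starts, by the height of the highest peak in that window (the best peak) and by the footprints inside it.

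DNase-seq cuts the DNA of isolated nuclei with the nuclease DNase I, so that accessible regulatory DNA stands out as stretches rich in cuts. The tissue was whole cerebellum from 2 male mice, aged 36 days, of B6CASTF1/J, a first-generation cross of C57BL/6J with CAST in which every autosomal gene is present once from each strain. There was 1 library per animal. Replicate numbers 1 and 2 follow the labels' biological replicates, although 1 donor entry is shared by both, so the SD between them may be partly technical. Both animals form 1 group with no treatment, so no test between groups was possible. Differences between classes of starts are set against the SD between the 2 animals, and paired values are given in the order replicate 1, replicate 2. The maps carry no allele and no strand of transcription, and a peak mixes all cell types of the tissue.

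A protein-coding promoter is often read in both directions, and an antisense RNA can begin beside it, on the opposite strand. Some antisense RNAs start upstream of the coding start and run away from it (divergent). Others start downstream of it and run back toward it (crossing). Here both names follow from the position and strand of the start alone. Whether a crossing RNA reaches the coding start was not checked. A further set starts deep inside or beyond a gene with no coding start nearby. Several long antisense RNAs, such as Kcnq1ot1 and Airn, are known for silencing neighbouring genes on the chromosome inherited from the father. A footprint is a short stretch within accessible DNA that is cut less than its surroundings, where a protein may sit on the DNA.

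The sequences below are the best peaks of high starts in each class. All are the C57BL/6J reference (mm10, GRCm38.p6) under the replicate 1 peak, written 5′ to 3′ along the antisense RNA's strand, and capitals mark bases inside replicate 1 footprints. The CAST allele that these animals also carry is not shown. The first 4 are the highest independent starts whose peak overlaps no UTR and is not longer than 300 bp. Gm12758 has its peak at chr7:34234101-34234320 on the plus strand. The peak of Junos is at chr4:95052321-95052420 on the plus strand, centred 870 bp upstream of its independent start and within 1 kb of the Jun start. 1700113A16Rik has its peak at chr3:88178021-88178240 on the minus strand, and Gm15179 at chr1:75370441-75370640 on the minus strand.
Gm12758: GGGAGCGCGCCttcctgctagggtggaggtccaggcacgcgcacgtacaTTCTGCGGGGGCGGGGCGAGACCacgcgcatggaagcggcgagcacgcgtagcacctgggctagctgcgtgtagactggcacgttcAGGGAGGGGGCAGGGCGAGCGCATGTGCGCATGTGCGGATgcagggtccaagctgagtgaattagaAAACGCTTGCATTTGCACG
Junos: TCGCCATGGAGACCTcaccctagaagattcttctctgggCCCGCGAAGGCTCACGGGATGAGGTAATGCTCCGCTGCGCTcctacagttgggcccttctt
1700113A16Rik: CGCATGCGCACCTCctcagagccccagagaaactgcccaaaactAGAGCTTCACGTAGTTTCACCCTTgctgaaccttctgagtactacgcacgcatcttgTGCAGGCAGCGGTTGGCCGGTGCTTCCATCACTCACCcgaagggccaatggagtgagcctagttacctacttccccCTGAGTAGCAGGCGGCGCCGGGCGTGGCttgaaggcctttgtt
Gm15179: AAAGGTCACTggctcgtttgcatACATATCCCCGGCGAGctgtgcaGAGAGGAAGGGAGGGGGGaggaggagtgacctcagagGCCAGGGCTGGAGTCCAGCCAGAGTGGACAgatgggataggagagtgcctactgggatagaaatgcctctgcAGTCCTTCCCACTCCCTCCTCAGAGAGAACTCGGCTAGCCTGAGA

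The near class is represented by Gm44686, which starts 392 bp from Chd2, a chromatin remodeller gene. Its peak covers chr7:73537761-73538020, read on the plus strand. This is the first of the highest near starts that met the same conditions on UTR and length.
Gm44686: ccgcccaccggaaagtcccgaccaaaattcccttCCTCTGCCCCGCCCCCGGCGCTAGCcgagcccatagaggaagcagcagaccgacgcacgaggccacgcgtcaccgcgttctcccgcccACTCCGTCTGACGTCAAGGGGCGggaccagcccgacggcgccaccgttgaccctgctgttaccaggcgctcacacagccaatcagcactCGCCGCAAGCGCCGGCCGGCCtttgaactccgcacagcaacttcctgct

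Kcnq1ot1 and Airn are shown because they are independent starts with a well known function. The Kcnq1ot1 peak covers chr7:143296501-143296760 on the minus strand, in an intron of Kcnq1. The Airn peak covers chr17:12741221-12741460 on the plus strand, in an intron of Igf2r.
Kcnq1ot1: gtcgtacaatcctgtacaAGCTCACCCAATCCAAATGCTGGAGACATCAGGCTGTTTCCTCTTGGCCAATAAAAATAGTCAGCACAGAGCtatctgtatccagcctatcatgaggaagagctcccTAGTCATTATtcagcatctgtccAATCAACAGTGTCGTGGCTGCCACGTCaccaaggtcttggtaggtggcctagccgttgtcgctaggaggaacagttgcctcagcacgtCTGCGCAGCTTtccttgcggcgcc
Airn: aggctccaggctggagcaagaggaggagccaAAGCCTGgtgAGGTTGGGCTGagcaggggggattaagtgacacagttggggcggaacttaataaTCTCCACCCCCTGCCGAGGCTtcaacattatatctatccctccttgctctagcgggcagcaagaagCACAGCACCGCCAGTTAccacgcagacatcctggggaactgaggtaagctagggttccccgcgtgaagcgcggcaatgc

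The 7 printed peaks hold between 2 and 5 footprints each. Gm12758 has 22 CpG dinucleotides in 220 bp, and Gm44686 has 29 in 260 bp. Gm15179, which is the fifth highest independent start, has only 4 CpGs in 200 bp. The 1700113A16Rik peak opens with a match to the NRF1 motif GCGCATGCG, read on the other strand, inside a footprint. In the Gm44686 peak a footprint holds the CRE motif TGACGTCA, the site known for CREB and ATF factors. The Kcnq1ot1 peak holds 3 matches to CCAAT, the core of the NF-Y site, and the centre of each of the 3 lies in a footprint. The Airn peak holds 1 match to the CTCF pattern and 1 to GGGCGG, and neither has its centre in a footprint.

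Near starts were open about 3 times as often as independent starts. The window of a near start takes in the coding promoter. The best peak reached within 1 kb of a coding start for 98.6% and 98.4% of open near starts. The part of the antisense start in the open share of the near class therefore cannot be told apart. Of the 1337 near starts, 1094 (81.8%) were open in replicate 1 and 1033 (77.3%) in replicate 2, a mean of 79.5% ± 3.23 (SD, n = 2). The background over all 132633 annotated starts was 47.5% and 44.2%. It is not limited to starts near a coding start, so it is not a like background. Protein-coding starts themselves were open in 63.6% and 60.1% of 54329. Of the 2759 independent starts, 751 (27.2%) and 684 (24.8%) were open, a mean of 26.0% ± 1.72 (SD, n = 2). The matching background, all 54680 annotated starts over 1 kb from a coding start with the antisense starts among them, was 16.5% and 13.2%. Independent starts were thus above their background by more than the SD between the animals. Independent starts of lincRNA genes, long non-coding RNAs between genes, were open in 21.5% and 18.5% of 7602. LincRNA starts within 1 kb of a coding start were open in 86.4% and 82.0% of 494, above near antisense starts in both animals.

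The state of a start was mostly shared by the animals. In both animals 1025 near starts and 598 independent starts were open, the latter 21.7% of the class against a background of 11.9%. Open in neither animal were 235 near and 1922 independent starts. Only replicate 1 had a peak at 69 near and 153 independent starts, and only replicate 2 at 8 and 86. These starts had low peaks, with a median height at independent starts of 0.428 in replicate 1 and 0.375 in replicate 2. The highest of them in replicate 1 were Gm49482 at 2.10 and Gm15122 at 1.70, and in replicate 2 they were 1700109G14Rik at 1.83 and Gm15775 at 1.74. Where a start was open in both animals, the 2 best peaks overlapped at 973 of 1025 near and 562 of 598 independent starts. Across these starts the log10 heights of the animals had a Pearson r of 0.964 (n = 1025) and 0.954 (n = 598). This is a correlation across starts, which are not independent replicates, since several starts can share a peak.

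Starts share peaks, so peaks were also counted once. The open near starts had 784 and 730 distinct best peaks, and the open independent starts 601 and 529. By gene, 766 and 717 of 946 antisense genes with a near start were open there. Of 2137 genes with an independent start, 581 and 515 were open there, or 27.2% and 24.1%. A group of 124 genes has starts of both classes. Of these, 48 in replicate 1 and 46 in replicate 2 were open at a near start but closed at every independent one, and 5 and 6 showed the opposite pattern. Both kinds of start were open in 49 and 43 of these genes.

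The share of open starts fell with distance from the coding start, most steeply across the first 2 kb. It was 86.6% and 83.2% for starts at most 100 bp away, and 79.8% and 71.7% between 500 and 1000 bp. Between 1 and 2 kb it was 50.6% and 45.9%, and between 2 and 5 kb 31.0% and 26.4%. Beyond 5 kb the share stayed between 19.4% and 25.5% in every distance class and animal. Starts over 50 kb from any coding start, of which there are 640, were open in 20.9% and 21.7%. The limit of 1 kb therefore cuts through a gradient. Grip1os3 at 1000 bp from Grip1 had heights of 0.840 and 0.721, and a start of 1600020E01Rik at 998 bp from Pcbp1 had 26.1 and 14.1. Just outside, AC139027.1 at 1002 bp had 8.14 and 5.72, and Sp3os at 1002 bp had 20.5 and 14.6.

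**Figure D1:**
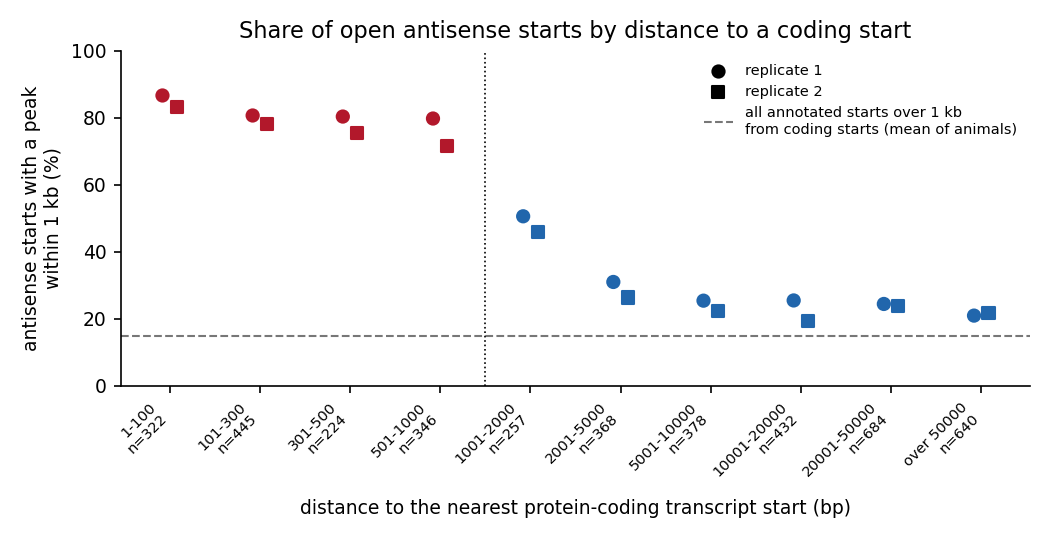
Share of antisense starts with a peak within 1 kb (y axis, percent) by distance to the nearest protein-coding transcript start (x axis, classes in bp with the number of starts); circles are replicate 1, squares replicate 2, red near and blue independent starts. The share falls from 86.6% and 83.2% in the closest class to 20.9% and 21.7% beyond 50 kb, and the dashed line is the mean of the backgrounds 16.5% and 13.2%.

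Independent starts were compared with points at fixed distances from them, because peaks are common inside genes. Points moved 3 to 20 kb up or down the antisense strand, and still over 1 kb from coding starts, lay within 1 kb of a peak in 11.3% to 13.8% of cases (means of both animals). At the starts themselves it was 26.0%. For starts over 5 kb from coding starts the mean was 22.9% ± 1.26 (SD, n = 2), against 10.9% to 12.8% at moved points. Among bases of protein-coding genes over 1 kb from a coding start, 10.7% and 9.08% lay within 1 kb of a peak.

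Some independent starts had a best peak that itself reached within 1 kb of a coding start. This was so for 74 of 751 open starts in replicate 1 and 69 of 684 in replicate 2. Without them 24.5% and 22.3% of the independent starts were open. Around the peaks of the 598 independent starts open in both animals, 436 (72.9%) had no start of any other gene within 1 kb. A protein-coding transcript start lay there for 67, another transcript of a protein-coding gene for 92, another long non-coding RNA gene for 21 and a small RNA gene for 12. Among the 2451 independent starts that had no start of another gene within 1 kb of the start itself, 25.5% and 23.0% were open.

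The place of the peak differed among the classes. At divergent near starts the middle of the best peak lay a median of 80 and 72.5 bp upstream of the antisense start, toward the coding start. At crossing near starts it lay 380 bp downstream in both animals, which is again on the side of the coding start. At independent starts the median offset was 3 and -19 bp, and the peak was upstream in 49.7% and 52.8%. Protein-coding starts had the peak upstream in 70.9% and 73.6%, and independent lincRNA starts in 59.9% and 63.1%. The median distance between independent start and peak middle was 371 and 385 bp, against 112 and 111 bp for protein-coding starts. The start base itself lay in a peak for 40.02% and 38.1% of near starts and for 8.23% and 8.41% of independent starts.

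**Figure D2:**
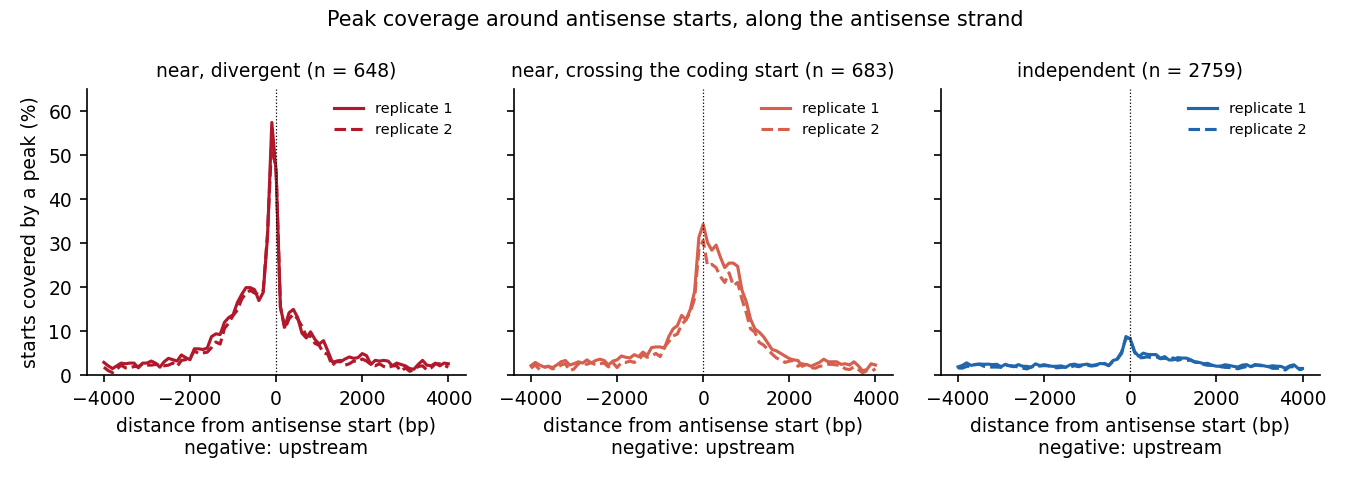
Share of starts whose base at each distance (x axis, bp, negative upstream on the antisense strand) is covered by a peak (y axis, percent), for divergent near, crossing near and independent starts; solid lines are replicate 1, dashed lines replicate 2. Coverage reaches 57.4% and 53.5% at 100 bp upstream of divergent starts, 34.3% and 30.6% at crossing starts and 8.81% and 8.45% at 100 bp upstream of independent starts.

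High peaks at independent starts sat upstream more often than low ones. Among independent starts whose best peak was among the highest 10% of the animal's list, the peak was upstream in 66.0% of 106 and 70.5% of 95. Among those at or below the median height of the list it was upstream in 45.1% of 233 and 48.4% of 254. The start base was inside the peak in 47.2% and 53.7% of the starts with the highest 10% of peaks, and in 16.3% and 19.7% of those at or below the median. Independent lincRNA starts had the same order, with 70.9% and 73.0% upstream in the highest 10% and 51.1% and 57.4% at or below the median. Protein-coding starts with the highest 10% of peaks had the peak upstream in 81.5% and 83.3%. The high peaks at independent starts still lay far from the start. Their median distance from start to peak middle was 337 and 363 bp, against 385 and 405.5 bp at or below the median height. With the highest 10% of peaks it was 190 and 177 bp at independent lincRNA starts and 95 and 98 bp at protein-coding starts. Of the 20 highest independent starts, 8 had their best peak within 1 kb of a coding start.

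Peaks at near starts were higher than peaks at independent starts in both animals. The height is the authors' signal value of a peak, and its scale differs between the animals. The median best peak at near starts was 7.89 and 5.82, which is the 91.6th and 90.5th percentile of the animal's list. At independent starts the median was 1.52 and 1.46, the 68.3rd and 65.2nd percentile. All peaks had a median of 0.764 and 0.899, and peaks over 1 kb from coding starts 0.640 and 0.770. Protein-coding starts had a median of 8.88 and 6.54, and independent lincRNA starts 1.21 and 1.33. The interquartile range of independent starts was 0.612 to 3.99 and 0.612 to 3.09, and that of near starts 2.01 to 15.8 and 2.03 to 10.9. Divergent starts had higher peaks than crossing starts, with 9.16 and 6.79 against 6.05 and 5.07, while their open shares were alike, with 80.9% and 77.5% against 83.0% and 77.3%. A window for near starts takes in the coding promoter itself. Its part in these heights, and in the footprints below, cannot be told apart from that of the antisense start.

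**Figure D3:**
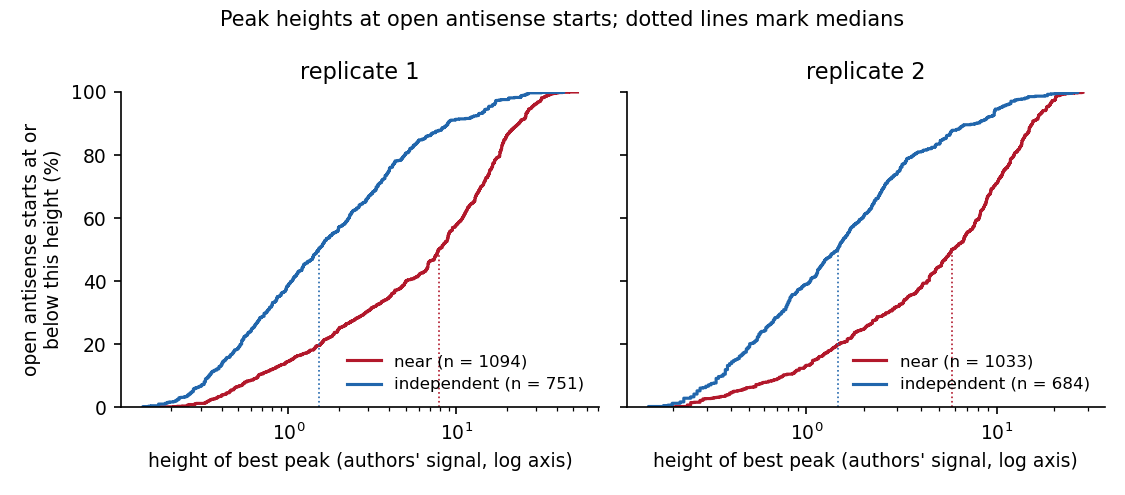
Cumulative share of open antisense starts (y axis, percent) at or below a best-peak height (x axis, the authors' signal, log scale) in replicate 1 (left) and replicate 2 (right); red near, blue independent, dotted lines the medians. The medians are 7.89 and 5.82 for near starts and 1.52 and 1.46 for independent starts.

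Footprints were found in the best peak of most open antisense starts. The best peak held a footprint at 97.6% and 93.7% of open near starts (mean 95.7% ± 2.77, SD, n = 2). At open independent starts it did so in 89.2% and 83.8% (mean 86.5% ± 3.85, SD, n = 2). Over all peaks, taken singly and not as the highest in a window, the share was 78.4% and 72.5%. With the nearest peak instead of the best it was 86.1% and 81.2% at near and 83.6% and 78.2% at independent starts. Near starts had a median of 4 footprints in the best peak in both animals, and independent starts 3 and 2. Per 100 bp of peak there were 1.86 and 1.76 footprints at near and 1.37 and 1.17 at independent starts.

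Footprint calls moved with height, so the classes were also set side by side at like heights. In the highest 10% of the list, 100% of near starts in both animals and 99.1% and 100% of independent starts had a footprint. Between the 50th and 75th percentile the shares were 93.6% and 90.8% for near, 92.1% and 91.0% for independent starts and 88.1% and 88.2% for all peaks. At or below the median height they were 87.2% and 59.5% for near, 73.0% and 63.4% for independent starts and 63.3% and 51.3% for all peaks. The order of the near and independent classes among these low peaks was not the same in both animals.

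A footprint at the start was less common in the independent class, where a peak also covered the start less often. A footprint lay within 50 bp of the start at 68.7% and 68.1% of open divergent starts, near the 70.4% and 67.6% of open protein-coding starts. The share was 36.7% and 30.1% at open crossing starts and 29.4% and 27.5% at open independent starts. The start base lay in a peak at 48.9% and 49.4% of open near starts and at 30.2% and 33.9% of open independent starts. The part of peak position in the footprint shares was not tested. Closed starts, which by definition have no peak in the window, had almost no footprint there. It was none of the near starts in either animal, and 0.0996% and 0% of the independent starts. Closed protein-coding starts had 0.182% and 0.0923%, so this is not a trait of antisense starts. A stretch at a false discovery rate below 0.05 reached into the window of 11 of 243 and 12 of 304 closed near starts, and of 55 of 2008 and 51 of 2075 closed independent starts.

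Open independent starts were richer in CpG dinucleotides. Vertebrate DNA has lost most CpGs except in CpG islands, where many promoters lie. In the 1000 bp centred on the start, the median ratio of observed to expected CpG was 0.338 at the 598 independent starts open in both animals and 0.218 at the 1922 open in neither. At near starts it was 0.726 and 0.273. Independent starts with a ratio of at least 0.6 were open in 79.0% and 71.7% of 138. Those under 0.2 were open in 16.9% and 16.2% of 1018. Near starts in the same 2 classes were open in 94.6% and 90.7%, and in 38.1% and 29.9%. At a ratio of at least 0.6 independent antisense and independent lincRNA starts (81.4% and 74.3%) differed by less than the difference between the animals. Under 0.2, independent antisense starts were open more often than lincRNA starts (9.63% and 7.78%) and protein-coding starts (11.5% and 9.34%). Most of the 2759 independent antisense starts lie inside another gene, 438 in exons and 1594 in introns, and the part of this in the difference was not tested.

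**Figure D4:**
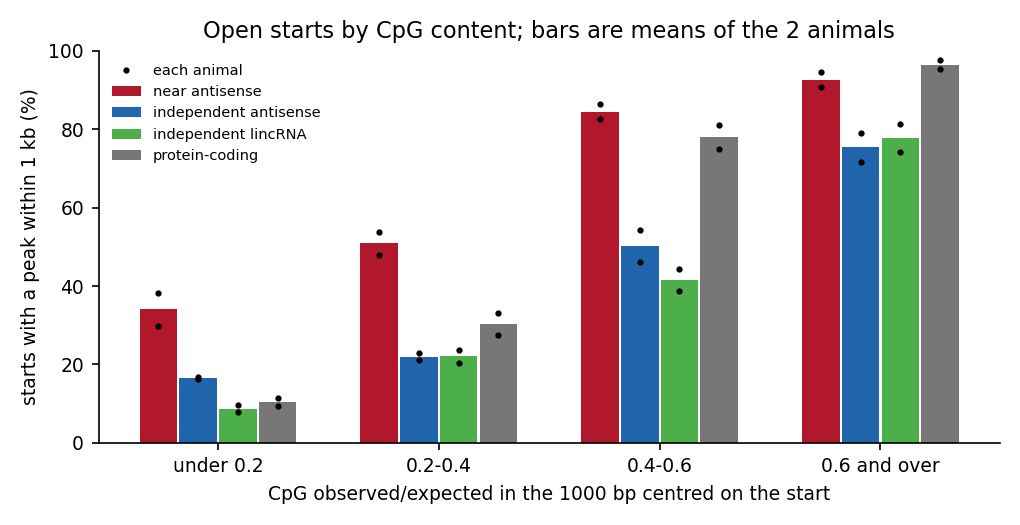
Share of starts with a peak within 1 kb (y axis, percent) by the ratio of observed to expected CpG in the 1000 bp centred on the start (x axis); bars are means of the 2 animals, dots single animals. Independent antisense starts rise from 16.9% and 16.2% in the lowest class to 79.0% and 71.7% in the highest.

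The open share also rose with GC content. Independent starts with under 40% GC in the 1000 bp were open in 9.92% in both animals, and those with at least 55% in 60.7% and 51.9% of 285. The traits that follow moved the open share less. Starts in exons of another gene were open in 35.8% and 28.5% of 438, in introns in 25.1% and 23.0% of 1594, and outside genes in 26.7% and 26.4% of 727. Host genes on the opposite strand were divided into 5 parts of equal length. The part nearest the host's start had 37.8% and 33.3% of its antisense starts open, and the other 4 parts 21.01% to 26.2%. That part begins at the host's start, so it overlaps with the gradient by distance given above, and they were not separated. Where the host's own promoter had a peak, 28.2% and 25.7% of independent starts were open, and where it had none 22.8% and 18.3%. Starts of transcripts with support level 1, the best supported models, were open in 30.5% and 26.4%, and those of level 5 in 19.5% in both animals. With another non-coding gene's start within 1 kb the share was 36.3% and 41.1% of 124.

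Short motifs were counted in the distinct best peaks, on both strands and in reference sequence. Motif matches are a description of letters and do not show which factor binds. Peaks had a median width of 200 and 220 bp at near and 180 and 200 bp at independent starts. The GC box GGGCGG, the site of SP and KLF factors, stood in 65.7% and 65.3% of near peaks and in 24.1% and 24.0% of independent peaks, against 17.3% and 17.4% of all peaks. Among independent peaks themselves over 1 kb from coding starts it stood in 20.5% and 18.5%, against 8.33% and 7.10% of all such peaks. GCGCATGCG, the site of the nuclear respiratory factor NRF1, was in 3.32% and 4.11% of near and 1.16% and 1.32% of independent peaks, against 0.566% and 0.653% of all peaks. The ETS site CCGGAAG was in 12.5% and 14.4% of near peaks and in 2.83% and 3.02% of independent peaks. Over all peaks, promoter peaks included, it was in 3.11% and 3.496%. Among independent peaks themselves over 1 kb from coding starts, CCGGAAG was in 2.25% and 2.15%, against 1.45% and 1.42% of all such peaks. For GCGCATGCG these shares were 1.13% and 1.29%, against 0.202% and 0.214%. They rest on 12 and 10 peaks with CCGGAAG and 6 in each animal with GCGCATGCG.

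For the E-box, TTGGCA and AP-1 patterns the order of near and independent peaks was the other way round. The E-box CAGATG or CAGCTG is read by basic helix-loop-helix factors such as NeuroD and Atoh1. It was in 20.4% and 19.5% of near peaks and 34.3% and 35.0% of independent peaks, with 31.6% and 32.9% of all peaks. Among independent peaks themselves over 1 kb from coding starts it stood in 36.0% and 35.9%, against 34.3% and 36.4% of all such peaks. TTGGCA, found in sites of nuclear factor I, was in 9.69% and 10.3% of near and 15.6% and 19.5% of independent peaks, with 17.5% and 20.5% of all peaks. The AP-1 site TGANTCA was in 2.68% and 2.47% of near and 4.16% and 4.91% of independent peaks, both below the 5.29% and 6.29% of all peaks. CCAAT was in 31.8% and 34.2% of near and 20.8% and 23.1% of independent peaks, with 20.4% and 23.3% of all peaks. The CTCF pattern CNAGNGGGC or CNAGNTGGC was in 20.4% of near peaks in both animals and in 18.6% and 18.9% of independent peaks, with 15.3% and 16.7% of all peaks. TATAAA was in 3.19% and 4.11% of near and 3.16% and 3.78% of independent peaks, with 3.35% and 4.60% of all peaks. YY1, searched as AANATGGC, was in 6.89% and 7.40% of near and in 2.33% and 2.46% of independent peaks, with 3.55% and 3.98% of all peaks. MEF2, searched as CTAAAAATA or CTATTTATA, was in no near peak, in 2 and 1 independent peaks and in 0.431% and 0.701% of all peaks. Patterns can share letters, as TTGGCA read on the other strand does with CCAAT and the CTCF pattern with GGGCGG.

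A match could be set against the footprints. Of the NRF1 matches, the centre base lay in a footprint for 43 of 46 and 51 of 53 in near peaks and for 8 of 9 in independent peaks of both animals, beside 87.4% and 88.7% over all peaks. For TGACGTCA it was 27 of 34 and 28 of 32 in near peaks, and 5 of 8 and 6 of 6 in independent peaks, beside 68.7% and 75% over all peaks. For GGGCGG it was 57.1% and 57.2% in near peaks and 45.5% and 31.3% in independent peaks, beside 42.8% and 40.9% over all peaks. For CCAAT it was 33.1% and 29.3% in near and 25.8% and 19.2% in independent peaks, beside 19.4% and 18.6% over all peaks.

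The highest independent start was that of Gm12758 on chromosome 7, 4041 bp from Gpi1, the glucose-6-phosphate isomerase gene. Its best peak, printed above, had a height of 43.8 and 26.7 and was centred 167 and 177 bp upstream of the start. The lincRNA gene Gm12762 starts within 1 kb of the same peak, so both RNA genes lie at this peak. Junos starts 1018 bp from Jun, a component of the AP-1 factor, and its peak of 32.3 and 20.3 lies within 1 kb of the Jun start. Another start of Junos is in the near class, 688 bp from Jun, and has the same best peak. 1700113A16Rik, 35120 bp from the nearest coding start, that of the neuronal factor gene Mef2d, had 26.9 and 18.5, with no other gene's start within 1 kb of the peak.

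Many of the other high independent starts had their best peak within 1 kb of a coding start. Of the 20 highest, 12 had peaks over 1 kb from coding starts and 8 did not. Besides Junos, the 8 were CR974462.3 at Brd2, which encodes a bromodomain protein, with 24.3 and 19.3, 1600020E01Rik at Pcbp1, which encodes a poly(rC)-binding protein, with 26.1 and 14.1, and Gm10353 at Mta2, a subunit gene of the NuRD complex, with 24.8 and 13.5. They also included Sp3os at the GC-box factor gene Sp3 with 20.5 and 14.6, Gm19582 at the diacylglycerol kinase gene Dgkd with 17.4 and 11.8, A230083G16Rik at Ptms with 18.6 and 10.8, and Gm16537 at Cox14 with 15.5 and 12.5. All 8 starts lie between 1002 and 1179 bp from a coding start. With peaks within 500 bp of the start, 6 of the 8 were lower: Junos had 10.2 and 7.25, CR974462.3 10.4 and 6.34, Sp3os 7.42 and 5.22, 1600020E01Rik 6.69 and 4.16, Gm16537 1.84 and 1.79, and Gm10353 0.585 and 0.573.

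The 12 with peaks over 1 kb from coding starts were spread over several settings. Gm15179 had 24.3 and 17.9 with the peak centred 89 bp upstream, 4846 bp from Speg, a muscle kinase gene. Gm15564, in an intron of the importin gene Kpna1, had 20.6 and 24.8 in a peak centred upstream, at -659 bp from the start, with none within 500 bp, and of the 20 it was the only one higher in replicate 2. A030001D20Rik, in an exon of Rasip1, had 24.4 and 15.9, and Zmiz1os1, 1426 bp from the transcriptional coregulator gene Zmiz1, had 24.2 and 14.7. 2210409D07Rik, in an intron of Ccdc192 and 75409 bp from its start, had 22.3 and 14.5. Prkag2os2 lies in an intron of Prkag2, which encodes a subunit of the AMP-activated kinase, and had 25.5 and 12.9 in a peak centred 776 bp from the start. With peaks within 500 bp it had 0.455 and 0.563.

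The other 4 had lower peaks. Snhg7os had 20.5 and 10.8, and the small nucleolar RNA gene Snora17 starts within 1 kb of its peak. Gm11465, in an intron of the chromatin reader gene Zmynd8, had 18.1 and 11.4 with the peak centred 625 bp away, and 1.24 and 1.38 with peaks within 500 bp of the start. Another transcript of Zmynd8 starts within 1 kb of that peak. Gm15587, in an exon of the endothelial nitric oxide synthase gene Nos3, had 16.9 and 11.1. Gm26670, 9848 bp from Traf5, had 15.7 and 12.4. The farthest from coding starts among the next ones was Gm15577 in an intron of Negr1, a neuronal adhesion gene, at 358630 bp. It had 14.3 and 11.5, with the peak centred 50 bp upstream of the start.

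**Figure D5:**
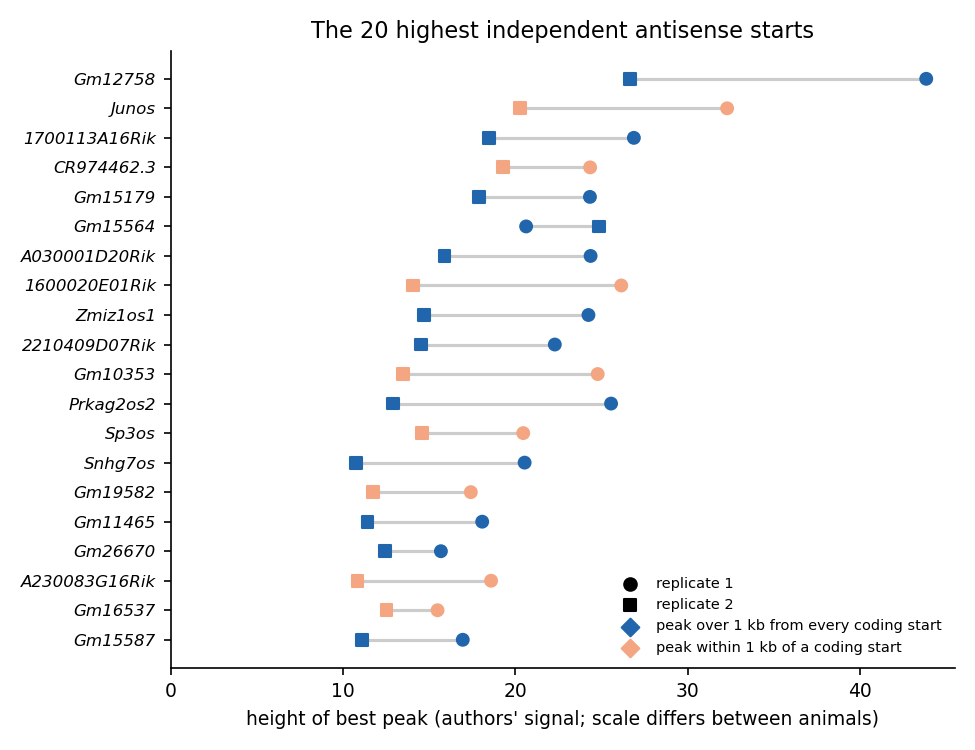
Heights of the best peak (x axis, the authors' signal) at the 20 highest independent antisense genes (y axis); circles are replicate 1, squares replicate 2, blue where the peak is over 1 kb from every coding start and orange where it is not. Gm12758 leads with 43.8 and 26.7, and 19 of the 20 were higher in replicate 1, whose scale differs.

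The 10 highest near starts reached heights of 34.4 to 52.9 in replicate 1 and 20.4 to 28.4 in replicate 2. Gm12905, 177 bp from Rragc, a Rag GTPase gene of amino acid signalling, had 52.9 and 28.1. Gm16278 at Rab40c had 47.1 and 28.4, but 1.49 and 1.62 with peaks within 500 bp of its start, and 4930535L15Rik, 97 bp from the inositol phosphate kinase gene Ip6k1, had 40.7 and 28.1. 1700016H03Rik at Btrc, a ubiquitin ligase gene, had 39.4 and 26.6, and 9330020H09Rik at Ccnt1, the cyclin gene of the elongation factor P-TEFb, had 39.5 and 25.4. Gm15559 at the chromatin remodeller gene Ep400 had 38.0 and 23.0 and the most footprints of the 10 highest, 10 and 12. Gm44686 at Chd2 had 34.4 and 24.0. The other 3 were 1700084E18Rik at Lrrc8a, Gm26805 at Tsga10 and Gm26766 at Zfp706, with 35.1, 35.8 and 36.2 in replicate 1.

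Of the imprinted antisense genes, 5 of 11 listed symbols are annotated as antisense genes here, and 4 of the 5 were open in both animals at an independent start. Of all antisense genes with an independent start, 457 of 2137 were open there in both animals. Kcnq1ot1, which silences genes around Kcnq1 on the paternal chromosome, had 5.80 and 7.73 with 4 and 5 footprints. Airn, which silences Igf2r, had 1.98 and 2.20 with 4 footprints in each animal. Nespas at the Gnas cluster had 0.851 and 0.652, and Tsix, the antisense partner of Xist, had 0.602 and 0.494. Kcnq1ot1 and Airn were higher in replicate 2, while most high starts were higher in replicate 1. The scale differs between the animals, and among lower peaks the order varied, with Nespas and Tsix higher in replicate 1. The lower quartile of near starts, close to the height of Airn, was 2.01 and 2.03. The median of near starts was 7.89 and 5.82, so Kcnq1ot1 went the other way from it. The reason was not tested. Igf2os had no peak in either animal. The files do not separate the C57BL/6J and CAST alleles, so whether a peak is on 1 parental chromosome was not measured.

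Antisense genes at transcription factor loci ranged from high to closed, with 7 of 16 listed symbols annotated. Zfhx2os, at a homeobox and zinc finger gene, had 13.7 and 9.75. Pax6os1, inside the granule cell factor gene Pax6, had 1.52 and 1.19. Emx2os and Nkx2-2os had low peaks in replicate 1 alone, 0.488 and 0.472. Wt1os had a low peak in replicate 1 alone, 0.428, at its near starts, and none at its independent starts. Dlx1as and Dlx6os1 had none. Of 5 annotated genes at the Hox clusters, Hoxd3os1 had 1.75 and 1.14 and Hotairm1, Hoxaas3, Hoxb3os and Hoxb5os had none. Mir133a-1hg had none.

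A larger list holds the 256 antisense genes named after a coding gene, with os or a similar suffix. Of these, 128 and 113 were open, 50% and 44.1% of the list beside 43.9% and 40.2% of all antisense genes. At near starts 77 and 69 of 94 were open, or 81.9% and 73.4% beside 81.0% and 75.8% of all genes with a near start. At independent starts it was 59 and 50 of 185, or 31.9% and 27.0% beside 27.2% and 24.1%. Rab10os has several independent starts, and the one 74465 bp from Rab10 had 17.2 and 11.9 in peaks that do not overlap between the animals, while the one 73358 bp away had 17.2 and 10.7 in overlapping peaks. Kdm6bos, in an intron of the histone demethylase gene Kdm6b, had 12.7 and 10.2. Grin1os, named after the gene of the obligatory NMDA receptor subunit, had 3.86 and 2.68. Irx3os, 1500 bp from the homeobox gene Irx3, had 2.20 and 1.98. Chn1os1 in the region of the chimaerin gene Chn1 had 0.249 and 0.514.

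Few antisense genes start independently inside marker genes of cerebellar cells, too few to set their open share apart from the 27.2% and 24.1% of all genes with an independent start. In the granule cell list, 1 of 3 antisense genes was open, Pax6os1, and the 2 inside Reln, which encodes the secreted protein reelin, were closed. All 6 antisense genes inside listed Purkinje cell genes, among them those in Ebf2, Rora and Itpr1, had no peak in either animal. Of 3 in interneuron genes, Gm14205 in the vesicular inhibitory transporter gene Slc32a1 had 0.883 and 0.523, and 1700039E22Rik in Pax2 had 0.374 and 0.336. Of 4 in astrocyte genes, Gm11266 in Nfib had 1.47 and 1.52, and Gm13872 in the glutamate transporter gene Slc1a2 had 0.563 in replicate 2 alone. Gm16183 in the calcium channel gene Cacna1a was closed in both animals. In whole tissue, few cells with a peak and a weaker peak in many cells cannot be told apart.

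The tissue was checked by the promoters of marker genes. Cbln3 and Neurod1 of granule cells had heights of 27.9 and 17.1 and of 20.6 and 12.6, and the hindbrain gene En2 had 16.4 and 10.8. Gabra6, also a granule cell gene, had lower peaks of 1.91 and 5.36. The forebrain gene Dlx1 had no peak. The forebrain genes Emx1 and Tbr1 had low ones, 0.911 in replicate 1 alone for Emx1 and 1.17 and 0.691 for Tbr1. The larger list holds 140127 and 114404 peaks and the footprint list 342409 and 262603 footprints. The depth of the libraries is unknown from the files used here.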

How the data were processed

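DNase-seq peaks, footprints and false discovery rates of cerebellum from 2 mice were used as the authors deposited them. Per the file headers, which here are the text files deposited beside them, coordinates are on mm10 and each animal's files come from its own alignments, with no pooling. Which aligner and callers were used is not given in the sources used here. Peak heights are the authors' signal values, deposited with each peak. Their scaling is not stated, so heights are compared mainly within an animal. All footprints have 1 deposited p-value type entry, 0.01, so only positions were used. The false discovery rates, also deposited p-value type measures, list stretches below 0.05.

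Starts came from GENCODE M21 on GRCm38.p6, 1 per gene, position and strand. Peaks overlapping 1000 bp on either side made a start open, and the highest was the best peak. Heights were ranked in the larger peak list, of 140127 and 114404 peaks. Coding starts were those of protein-coding transcripts of protein-coding genes. The rule for naming took the 20 highest independent and 10 highest near genes by mean list percentile, open in both animals with overlapping best peaks. It added genes of listed symbols, genes inside marker genes, the 2 starts on each side of the limit and the 2 highest starts open in 1 animal. Gm15577 and Rab10os were chosen after their values were seen, as were the Kcnq1ot1 and Airn sequences and the named genes of the os list. Members, lists and motifs were chosen with earlier results of these data known. Some listed genes are not reported here. With 1 group, values are given per animal and as mean ± SD (n = 2), with no test. Depth is unknown, so no interval was computed. The alternatives were the smaller peak list, other windows, limits, start definitions and peak choices, and each animal left out. The counting functions were tested on simulated data. Python 3.11.15, numpy 2.4.6, pandas 2.3.3, pysam 0.24.0, bedtools 2.31.1 and samtools 1.23.1 were used.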

Additional observations from a re-analysis of the deposited data

How the results depend on the processing

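Near starts were open more often, and had higher and more often footprinted best peaks, than independent starts in the mean of both animals under each alternative run for both classes. The values below are means of the 2 animals and moved by more than 1 SD between them. With the smaller peak list, 75.2% of near and 20.01% of independent starts were open, the independent median height was 2.22 and 93.6% of open independent starts had a footprint. With peaks within 500 bp, the open shares were 72.6% and 20.1%, the independent median 1.36 and the footprint share of near starts 89.1%. Within 2000 bp, the open shares were 82.9% and 35.6% and the independent median 1.55. With the limit between the classes at 500 bp, 31.5% of independent starts were open with a median of 1.82. With the limit at 5000 bp, 65.9% of near and 22.9% of independent starts were open, and the independent median was 1.26. With 1 start per gene, 24.3% of independent starts were open with a median of 1.39. Counting every transcript of a coding gene as coding left 74.8% of near starts open. Counting only peaks at or above the list's median height left 70.3% and 17.3% open. With the nearest peak in place of the highest, the median heights were 3.86 and 1.09 and the footprint shares 83.7% and 80.9%.

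Of the alternatives chosen after seeing the data, peaks away from coding starts gave an independent median of 1.37 and starts with no other gene's start within 1 kb gave an open share of 24.3%. Leaving out each animal in turn gave near open shares of 77.3% to 81.8%, independent open shares of 24.8% to 27.2%, near medians of 5.82 to 7.89, independent medians of 1.46 to 1.52, and footprint shares of 93.7% to 97.6% and 83.8% to 89.2%. No paired analysis was possible because there is 1 group.

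Of the 20 highest independent starts, the height moved by over 1 SD for 8 with peaks within 500 bp, where 1 more had no peak in an animal, and for 9 with the nearest peak. The mean height of both animals within 500 bp fell to 0.579 for Gm10353, 0.509 for Prkag2os2, 1.31 for Gm11465 and 1.82 for Gm16537. The SD comes from 2 animals, and at independent medians it is small. Depth and the authors' scaling are unknown, which limits what can be said of low peaks.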
